A study of Sus scrofa with 12 samples.

Results

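The acute inflammatory response of pig muscle was examined through IL6 and the genes that usually accompany it, in Semimembranosus muscle of 12 Italian Large White pigs. The symbols of 10 genes were looked for among the 25880 genes counted, chosen because IL6 and the receptor gene GPR183 differed between the groups of this study and because IL6 was carried by 1 or 2 pigs. Ensembl gene identifiers were found for 9 of the 10, namely IL6, LIF, CXCL2, CCL2, PTGS2, GPR183, SOCS3, NFKBIA and TNFAIP3. IL1B had no identifier in the gene name table used and was not analysed here. All 9 genes had counts in each of the 12 pigs and passed the filter on low counts that kept 14262 genes for testing.

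The 6 high IMF pigs (numbers 1 to 6) and the 6 low IMF pigs (numbers 7 to 12) were taken from the extremes of intramuscular fat (IMF) content. Neither group received a treatment, and both shared 1 environment and 1 diet. By the labels each group held 3 females and 3 males, aged 234 to 244 days in the high and 229 to 249 days in the low IMF group, and each pig gave 1 library of polyadenylated RNA. The muscle was collected in a commercial slaughterhouse, so the counts describe tissue after slaughter, and the methods name several slaughter days without tying them to pigs in the sources used here.

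Each library held from 131048805 to 178013997 counts, and the values below are normalised read counts, that is counts scaled by TMM (trimmed mean of M-values, a correction for library size and composition) to a common library size. Skeletal muscle markers summed to between 31711 and 60988 CPM (counts scaled to the size of the library), the highest sum of the 10 cell type marker lists, with 4 of 10 markers carrying an identifier. Counts on the Y chromosome went against the labelled sex in 6 of the 12 pigs, pigs 3 and 5 of the high and pigs 7, 8, 9 and 10 of the low IMF group, and slopes, correlations and fold changes were therefore also computed without these 6 pigs. Whether pigs were exchanged between labels was not tested, and the groups are those of the labels. In bulk tissue, more cells of a type and more RNA per cell cannot be told apart.

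IL6 is a cytokine that acts through its receptor and the shared chain IL6ST to activate the transcription factor STAT3, and contracting muscle is one of its sources. LIF is a cytokine of the same family. CXCL2 and CCL2 are chemokines, which draw neutrophils and monocytes respectively, and PTGS2 (COX-2) is the inducible enzyme of prostaglandin synthesis. GPR183 is a receptor for oxysterols that guides the migration of immune cells. SOCS3, induced by STAT3, shuts down signalling by the IL6 family, NFKBIA holds the transcription factor NF-kB in the cytoplasm, and TNFAIP3 is an enzyme that ends NF-kB signalling, so that the inhibitors are themselves early targets of the signals they limit.

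The promoters of these genes hold short motifs by which NF-kB, STAT factors and C/EBP factors are known to bind DNA, and the stretches of 5 genes are shown because they carry NF-kB or STAT matches in ligands and in inhibitors of the same pathway. They were read from RefSeq on Sscrofa11.1, the build to which the authors aligned, 5′ to 3′ on the strand of the gene, within 250 bases before to 50 bases after the first base of the gene. Capitals mark the matches of NF-kB (GGGANNNNCC, in either orientation), C/EBP (TTGCNNAA) and STAT (TTCNNNGAA).

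IL6, chr9:91506261-91506370, plus strand: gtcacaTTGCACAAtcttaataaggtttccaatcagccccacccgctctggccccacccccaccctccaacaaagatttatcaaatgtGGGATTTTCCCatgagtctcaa
CXCL2, chr8:70157093-70157202, plus strand: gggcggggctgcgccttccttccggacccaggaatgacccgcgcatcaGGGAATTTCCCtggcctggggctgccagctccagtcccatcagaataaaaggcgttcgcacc
NFKBIA, chr7:64507909-64508018, plus strand: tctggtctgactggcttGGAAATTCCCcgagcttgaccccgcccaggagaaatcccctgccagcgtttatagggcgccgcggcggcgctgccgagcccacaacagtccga
CCL2, chr12:40800084-40800193, minus strand: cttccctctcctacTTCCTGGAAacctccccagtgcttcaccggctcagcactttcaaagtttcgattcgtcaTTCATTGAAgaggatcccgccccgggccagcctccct
SOCS3, chr12:3643652-3643761, plus strand: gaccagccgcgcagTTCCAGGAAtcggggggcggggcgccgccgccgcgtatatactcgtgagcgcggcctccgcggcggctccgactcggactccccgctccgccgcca

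The NF-kB motif stood in the windows of 5 of the 9 genes (IL6, CXCL2, SOCS3, NFKBIA and TNFAIP3), against 31.0% of all 19548 RefSeq promoter windows of the same length. In IL6 and in CXCL2 it matched on both strands in places that overlap by all but 1 base. The STAT motif stood in 2 of the 9, with a pair of matches in CCL2 and a single match in SOCS3, against 7.11% of all windows. C/EBP matched in IL6 and PTGS2, against 9.46% of all windows, AP-1 (TGANTCA) in TNFAIP3 alone, against 6.07%, and CRE (TGACGTCA, 2.26% of windows) in 0 of the 9. All of these were searched on both strands, and TATAAA, searched on the strand of the gene, was in 0 of the 9 and in 6.96% of all windows. LIF and GPR183 held no match. A match describes letters in the window and says nothing of whether a factor was bound.

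IL6 lies on chromosome 9 (91506421 to 91510830, plus strand) and CCL2 and SOCS3 on chromosome 12 (40798109 to 40800013, minus strand, and 3643832 to 3647015, plus strand). CXCL2 is on chromosome 8 (70157253 to 70159145, plus strand), in a family of near-identical chemokine genes among which the reads may be split. PTGS2 (chromosome 9, 127850164 to 127858866, minus strand) shares exon sequence with PLA2G4A on the opposite strand. GPR183 (chromosome 11, 68231851 to 68248627, minus strand) lies within the span of UBAC2 on the opposite strand with no shared exon. The strand option of the counting is not given in the sources used here, so the counts of PTGS2 could hold reads of PLA2G4A. PLA2G4A itself had a slope on IL6 (log2 change per log2 unit of IL6) of 0.0085 ± 0.051 (SE) and a normalised count of 439 in pig 6 and 411 in pig 1.

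Levels can be compared between genes only per length, here as CPM per kilobase of RefSeq exon. By the median over 12 pigs, NFKBIA was the highest at 23.5 CPM per kb, followed by CCL2 at 5.21, SOCS3 at 4.00 and CXCL2 at 2.48. Far lower were IL6 at 0.409, TNFAIP3 at 0.347, PTGS2 at 0.186, GPR183 at 0.0917 and LIF at 0.0242 CPM per kb. Neighbours in this order overlapped in their ranges over pigs. In the pig with the most, IL6 reached 30.6 and CCL2 186 CPM per kb, against 40.3 for NFKBIA at its highest. IL6 spanned a range of 467-fold from the lowest to the highest pig, CCL2 168-fold and SOCS3 46.0-fold, whereas NFKBIA spanned 2.45-fold and TNFAIP3 2.74-fold.

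IL6 was high in a pair of high IMF pigs. Its normalised count was 5054 in pig 6 and 847 in pig 1, and between 35.4 and 112 in the other 4 high IMF pigs. In the low IMF group it ran from 10.8 in pig 7 to 167 in pig 10, with a median of 46.2. Pig 6 therefore stood 67.5-fold above the median of the other 5 high IMF pigs, while the remaining 4 high IMF pigs lay within the range of the low IMF group. Behind the lowest value, that of pig 7, were 8 counts, and behind the highest 4340.

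LIF, the other cytokine of the family, was high in pig 6 only. Its normalised count there was 334, while the other 5 high IMF pigs had between 32.1 and 43.2. The low IMF pigs had between 8.81 and 44.9, with the highest value in pig 10. Pig 1, with the second highest IL6, had 43.2 normalised counts of LIF, below pig 10.

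CXCL2 was 1911 in pig 6 and 970 in pig 1, the highest values of the 12 pigs. The other 4 high IMF pigs ran from 293 to 718. The low IMF pigs ran from 115 to 531, with a median of 269, so that the groups overlapped only through pigs 3, 4, 7 and 8. Low IMF pig 10, with the highest IL6 after pigs 6 and 1, had a normalised count of CXCL2 of 271, below 8 other pigs.

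CCL2 reached 20295 normalised counts in pig 6, 34.8-fold above the median of the other 5 high IMF pigs. It was next highest in low IMF pig 10, at 1284, and in pig 1, at 1185. The other 4 high IMF pigs had between 344 and 709, and the low IMF group had a median of 328 and its lowest value, 121, in pig 7. The pigs lowest in IL6 and in CCL2 were thus the same, and the 3 highest in IL6 were also the 3 highest in CCL2.

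PTGS2 was high in both pigs to the same degree, with 812 normalised counts in pig 1 and 791 in pig 6. The other 4 high IMF pigs had between 23.3 and 156 and the low IMF pigs between 29.8 and 148. Apart from pigs 1 and 6, the groups covered nearly the same range.

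GPR183 had a normalised count of 543 in pig 6, and 165 in pig 1, below pig 4 with 192. Pig 3, at 80.0, was the lowest of the high IMF group. The low IMF pigs lay between 62.0 and 97.2, and pig 10, which was high in IL6, CCL2 and SOCS3, had the lowest GPR183 of the 12 pigs. Of the high IMF pigs, 5 of the 6 lay above all low IMF pigs, the exception being pig 3.

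SOCS3 followed IL6 among the high IMF pigs. It was 25064 in pig 6 and 5513 in pig 1, and between 545 and 1491 in the other 4. In the low IMF group it was highest in pig 10, at 6702, which exceeded pig 1, and the group's median, 1645, was above that of the high IMF group, 1487. NFKBIA was highest in pigs 6 and 1, at 5601 and 5176, but the low IMF pigs 7 and 8 came close, at 4515 and 4406, and the lowest value was 2286. TNFAIP3 was highest in pig 1, at 677, whereas pig 6 had 501, within the 247 to 520 of the low IMF group.

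Counted over the 9 genes, pig 6 had the highest value of all pigs for 7 and pig 1 for 2. Pigs 6 and 1 were both among the top 3 for 8 of the 9 genes, the exception being TNFAIP3, and were the top pair for 4. Since IL6 and GPR183 chose the members, their own ranks are a description. The shares of all genes with such ranks in these pigs were not computed, so none of these counts is a result about the members. Pig 10 was the highest low IMF pig for 6 of the 9.

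**Figure D1:**
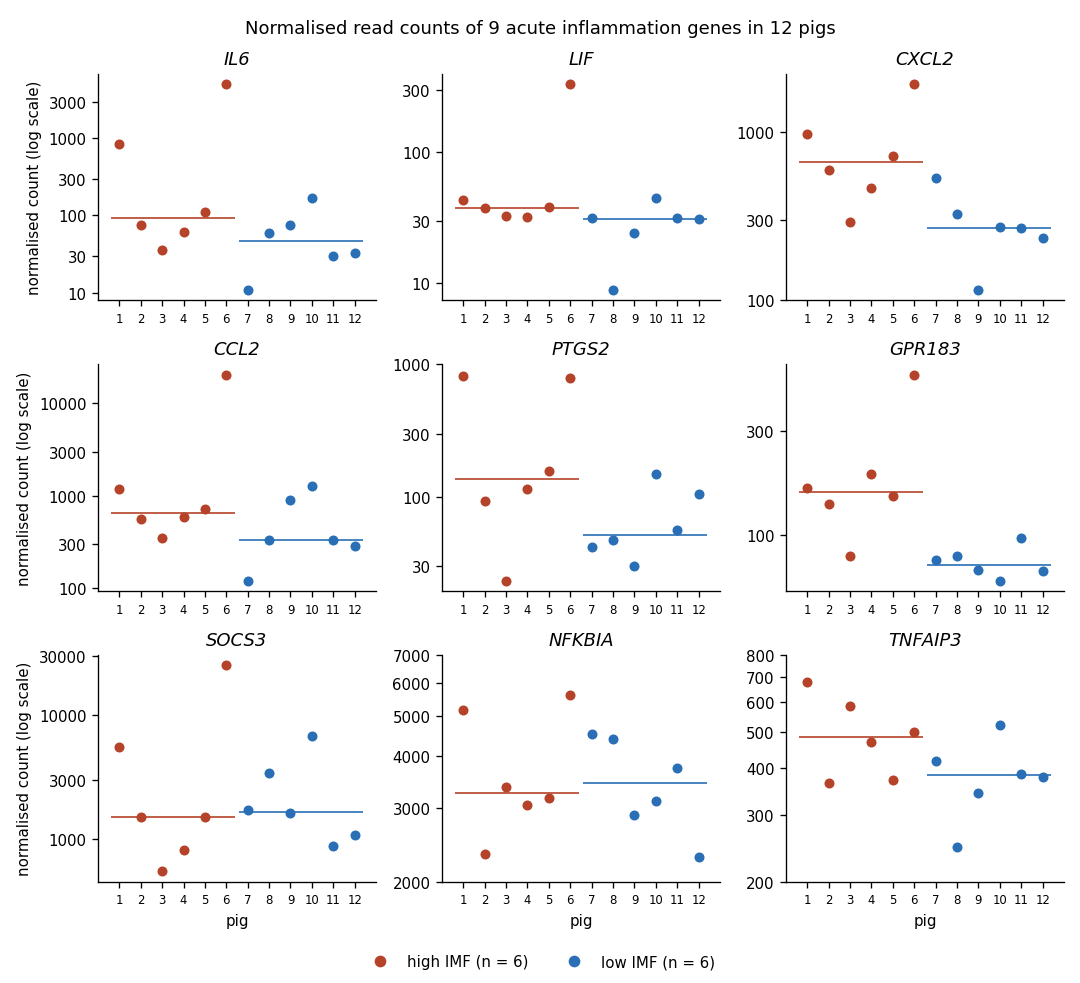
Normalised read counts (log scale) of the 9 genes in the 12 pigs, with the 6 high IMF pigs in red and the 6 low IMF pigs in blue, each point 1 pig and each horizontal line the median of its group. Pig 6 is the highest point in 7 of the 9 panels, and pig 1 in those of PTGS2 and TNFAIP3.

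The question whether the other genes were high in the same pigs as IL6 was tested as a slope on the log2 CPM of IL6, with the group in the model, by edgeR's quasi-likelihood test over 14261 genes. CCL2, SOCS3 and PTGS2, 3 of the 8 other genes, rose with IL6 (Benjamini-Hochberg adjusted p of 0.05 or less over all genes), where 0.841% of all genes tested rose. At an unadjusted p of 0.05 or less 6 of the 8 rose, beside 6.42% of all genes. The 6 include GPR183, which was chosen on its level in these same pigs, so its slope is a description. CCL2 changed by 0.80 ± 0.068 (SE, n = 12 pigs) on the log2 scale per log2 unit of IL6, with an adjusted p of 1.15e-04 by edgeR, which is 6.31-fold where IL6 differs by 10-fold. SOCS3 changed by 0.70 ± 0.074, with an adjusted p of 5.37e-04 by edgeR. For PTGS2 the slope was 0.58 ± 0.12 and the adjusted p 0.0381 by edgeR.

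The other 5 genes did not pass. LIF had a slope of 0.39 ± 0.092 and an adjusted p of 0.0710 by edgeR (0.0462 without pig 7, 0.0382 without pig 8 and 0.0185 by DESeq2), and GPR183 a slope of 0.23 ± 0.064 and an adjusted p of 0.148. The slope of CXCL2 was 0.20 ± 0.086, that of NFKBIA 0.10 ± 0.049 and that of TNFAIP3 0.039 ± 0.049, with adjusted p of 0.444 or more by edgeR.

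These calls depended on pig 6. Without it 0 of the 8 genes passed, and of all genes 2, or 0.0139%, still rose. The slopes of CCL2, SOCS3 and PTGS2 were then 0.61 ± 0.11, 0.64 ± 0.11 and 0.70 ± 0.15, with unadjusted p of 1.81e-04, 1.13e-04 and 7.10e-04 in edgeR and adjusted p of 0.124, 0.121 and 0.207. Those of LIF and GPR183 were 0.079 ± 0.13 and 0.026 ± 0.090. Without both pigs 6 and 1, CCL2 had the slope 0.89 ± 0.11, with the smallest adjusted p of all genes, 0.113 by edgeR, and SOCS3 had 0.61 ± 0.17, while CXCL2, GPR183, NFKBIA and TNFAIP3 had slopes between -0.16 and -0.019. Without the 6 pigs whose Y chromosome counts went against their label, a set that leaves pigs 1 and 6 in, SOCS3 alone passed and CCL2 had the slope 0.78 with an adjusted p of 0.123 by edgeR. The call of PTGS2 was also lost on leaving out any of pigs 2, 3, 4, 5, 10 and 11, where its slope stayed between 0.50 and 0.60.

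**Figure D2:**
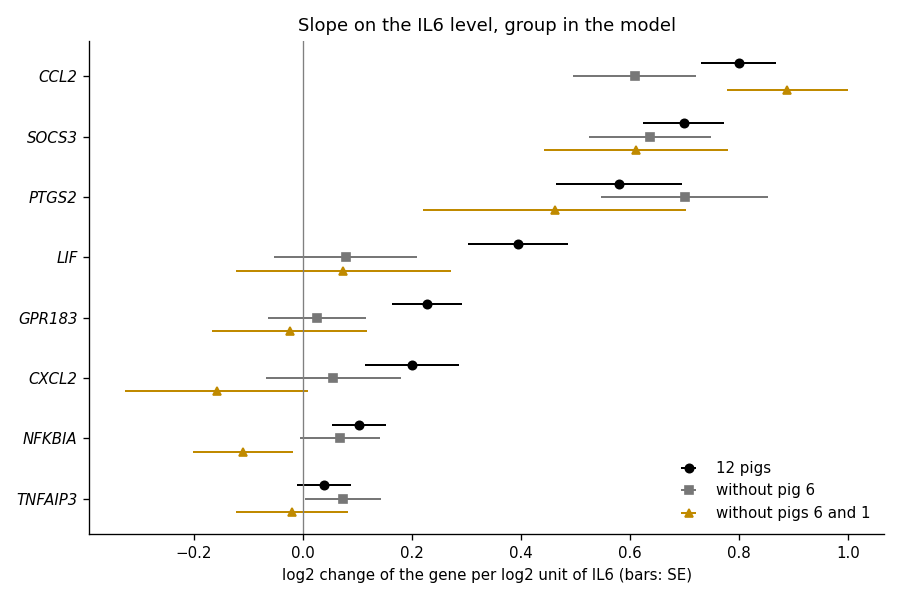
Slope of each gene on IL6, as the log2 change per log2 unit of IL6 with its SE and the group in the model, for all 12 pigs (circles), without pig 6 (squares) and without pigs 6 and 1 (triangles). CCL2, SOCS3 and PTGS2 stay between 0.46 and 0.89 in all 3 sets, and LIF, GPR183, CXCL2, NFKBIA and TNFAIP3 lie at or below 0.079 once pig 6 is left out.

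Correlations of log2 CPM gave a second view of the same pigs. For CCL2 and IL6 Pearson's r was 0.947 and Spearman's rho 0.965 over 12 pigs (permutation test, 100000 resamples, p = 2.00e-05 for both, adjusted over 14261 genes 0.0238 for r and 0.0951 for rho). It was 1 of 8 genes past an adjusted p of 0.05 for r, where 0.147% of all genes passed with a positive r. For rho 0 of the 14261 genes passed the permutation test, with a smallest adjusted p of 0.0713 and 1040 genes at an unadjusted p of 0.05 or less. The call of CCL2 was lost without pig 1, pig 6 or pig 7, where r was 0.987, 0.871 and 0.936. Without pigs 6 and 1, the 2 farthest from the median of IL6, r of CCL2 was still 0.945 over 10 pigs, which was the highest of all genes tested, with an adjusted p of 0.502 by permutation. Within the groups r was 0.937 in the 6 high IMF pigs (exact permutation test, unadjusted p = 0.00278) and 0.949 in the 6 low IMF pigs (exact permutation test, unadjusted p = 0.00417).

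For the other genes r was lower without pigs 6 and 1. PTGS2 had r = 0.862 and rho = 0.706 (permutation p 9.60e-04 and 0.0131, adjusted 0.121 and 0.545), and r = 0.531 without the 2 pigs. SOCS3 had r = 0.845 and rho = 0.608 (permutation p 0.00144 and 0.0394, adjusted 0.143 and 0.667), and r = 0.499 without them. GPR183 (r = 0.773, rho = 0.406) and LIF (r = 0.762, rho = 0.713), with permutation p of r of 0.00894 and 0.0132 and of rho of 0.194 and 0.0120, dropped to r of 0.179 and 0.136. CXCL2 (r = 0.679, rho = 0.497, permutation p 0.0166 and 0.104) dropped to r = -0.039. NFKBIA (r = 0.508, rho = 0.182) and TNFAIP3 (r = 0.415, rho = 0.259) had permutation p of 0.0906 and 0.180 for r and 0.575 and 0.415 for rho, and r of -0.39 and -0.026 without the 2 pigs. The adjusted p of r for these 7 genes lay between 0.121 and 0.632.

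Within the high IMF group rho with IL6 was 0.886 or more for 5 of the 8 genes (CXCL2, CCL2, SOCS3, LIF and PTGS2). Correlations within a group were computed for the members only. The share of all genes with such a rho is therefore not known, and the count is a description. CXCL2 had rho = 1 and r = 0.953 over its 6 pigs (exact permutation test, unadjusted p = 0.00278 and 0.00139), and SOCS3 r = 0.992 (exact permutation test, unadjusted p = 0.00278). In the low IMF group r was 0.691 for SOCS3, 0.405 for PTGS2, -0.55 for CXCL2 and -0.55 for GPR183 (exact permutation test, unadjusted p between 0.126 and 0.433). The difference between the groups was tested as an interaction of group and IL6 in edgeR, which was added after the data were seen. The slope of CXCL2 was 0.32 in the high and -0.28 in the low IMF group, a difference of -0.60 ± 0.16 (SE) with an adjusted p of 0.483 in edgeR. Of 14261 genes, 0 passed an adjusted p of 0.05 in this test and 1100 had an unadjusted p at or under 0.05. For CCL2 the slopes were 0.78 and 0.93, with an adjusted p of their difference of 0.879 in edgeR.

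**Figure D3:**
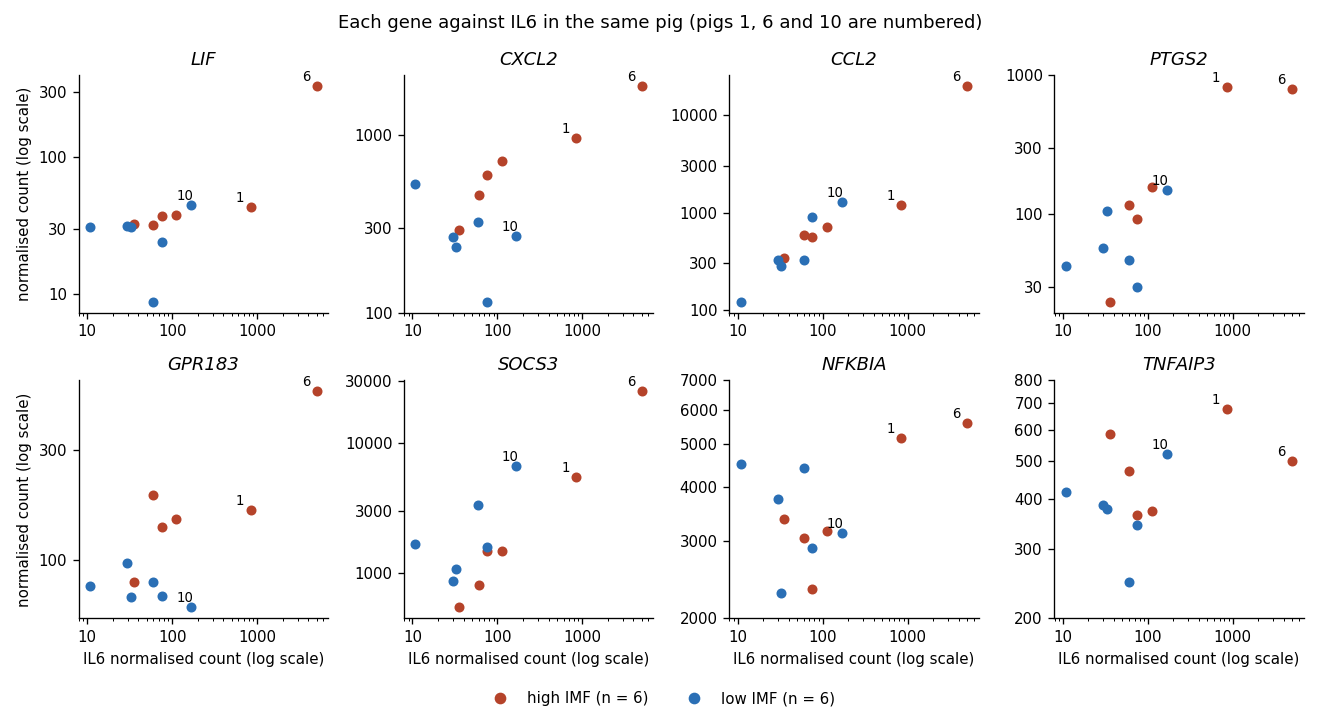
Normalised read count of each of the 8 other genes against that of IL6 in the same pig, both on log scales, with high IMF pigs in red and low IMF pigs in blue. CCL2 rises with IL6 over the 12 pigs (r = 0.947), but it was 1185 in pig 1 and 1284 in pig 10, where IL6 was 847 and 167. TNFAIP3 in pig 6, at 501, lies within the 247 to 520 of the low IMF pigs.

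Between the groups, all 9 genes had a higher mean in the high IMF pigs, and 7 of the 9 a higher median. These counts include IL6 and GPR183, and the shares of all genes with a higher mean or median were not computed. The log2 fold change (log2FC) is that of low over high IMF, so that a negative value is higher in high IMF. IL6 (-4.03 ± 1.23, SE) and GPR183 (-1.48 ± 0.38) were chosen on this contrast, and their values are a description. After adjustment, edgeR called 0 of the other 7 genes and 0 of all 14262 genes (0.0%), with 0.190 as the smallest adjusted p. With DESeq2's Wald test, the kind of test the study used, 0.828% of the 11469 genes given an adjusted p passed. Of the 7 genes DESeq2 gave CCL2 and LIF no p, and of the 5 others CXCL2 alone passed (log2FC -1.50, adjusted p 0.0339 by DESeq2).

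At an unadjusted p at or under 0.05 by edgeR, 4 of the 7 were higher in high IMF, beside 5.04% of all genes. These were CXCL2 (-1.51 ± 0.43), PTGS2 (-2.21 ± 0.75), CCL2 (-2.86 ± 1.05) and LIF (-1.59 ± 0.65), and their adjusted p lay between 0.367 and 0.441 in edgeR. SOCS3 (-1.19 ± 0.87), TNFAIP3 (-0.37 ± 0.20) and NFKBIA (-0.11 ± 0.22) had edgeR adjusted p between 0.518 and 0.898. The count of 4 was 1 by limma-voom (CXCL2), and 2 (CXCL2 and PTGS2) with labelled sex or age as a term, without pig 6 and without the 6 pigs whose Y chromosome counts went against their label. Without those 6 pigs the log2FC was -5.58 ± 2.14 for IL6, -4.20 ± 1.83 for CCL2, -3.07 ± 1.41 for SOCS3 and -0.41 ± 0.39 for NFKBIA. The groups overlapped for all 9 genes, while 0.659% of all genes tested did not overlap.

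Without pigs 6 and 1, an alternative added after the data were seen and given with no test, the log2FC moved to -0.17 ± 0.62 for IL6, -0.017 ± 0.54 for CCL2, -0.43 ± 0.54 for PTGS2 and -0.29 ± 0.41 for LIF. Those of CXCL2 and GPR183 were -0.84 ± 0.35 and -0.89 ± 0.26. SOCS3 turned to 1.24 ± 0.56, higher in the low IMF pigs, and leaving out pig 6 alone gave it 0.37. TNFAIP3 stood at -0.23 ± 0.21 and NFKBIA at 0.23 ± 0.19.

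**Figure D4:**
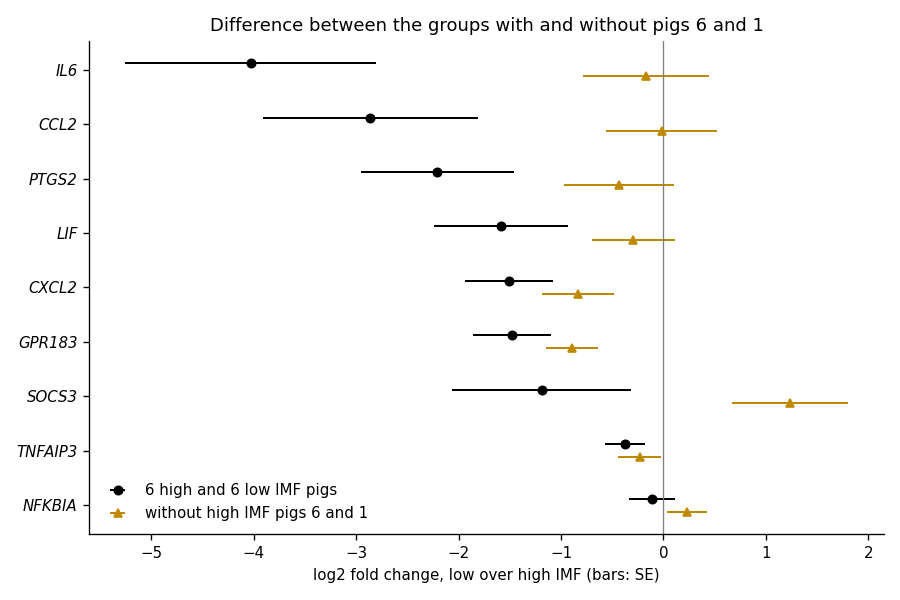
Log2 fold change, low over high IMF, of the 9 genes with its SE, for 6 against 6 pigs (circles) and without high IMF pigs 6 and 1 (triangles). IL6, CCL2, PTGS2 and LIF move to within 1 SE of 0 without the 2 pigs, CXCL2 and GPR183 remain at -0.84 and -0.89, and SOCS3 changes sign.

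The partners of these genes were described from lists of the pathway, all chosen with earlier results of these data known. For each list the genes called for their slope on IL6 (edgeR, adjusted p of 0.05 or less) and the median slope are given, beside 0.841% rising, 0.0912% falling and a median slope of -0.0015 over all genes. All these slopes, like those above, include pig 6. Between the groups edgeR called 0 of the 200 list genes tested, with 22 higher in high IMF and 10 higher in low IMF at an unadjusted p of 0.05 or less (5.04% and 5.38% of all genes). Of the 162 that DESeq2 gave an adjusted p it called CEBPB and FOSL2, both higher in low IMF and named for it.

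Of 18 tested genes of IL6 family signalling, 2 rose and 0 fell, with a median slope of 0.026. OSMR, the receptor chain of oncostatin M, had a slope of 0.32 ± 0.032 and a normalised count of 9578 in pig 6 and 4286 in pig 1, against 1476 to 3133 in the other 10 pigs. STAT3, named because it was the other gene that rose, had 0.14 ± 0.027 (adjusted p 0.0270, edgeR). IL6ST, the shared receptor chain, had 0.076 ± 0.025 and did not pass, and neither did CISH (0.20 ± 0.16) or SOCS1 (-0.11 ± 0.11), inhibitors of cytokine signalling.

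Among 19 tested targets of STAT3 and the acute phase, 6 rose and 0 fell, and the median slope was 0.20. Their median log2FC was -0.28, beside -0.0083 over all genes. Those that rose included THBS1, PLAUR, TIMP1, SBNO2 and ICAM1, of which the last 4 were named for having risen. PLAUR is the receptor of urokinase and TIMP1 an inhibitor of matrix proteases. THBS1, an adhesive matrix protein, had the slope 0.50 ± 0.036 and a normalised count of 224434 in pig 6 and 64788 in pig 1, against 9803 to 25793 in the other 10 pigs. ICAM1, a leukocyte adhesion molecule, had 0.24 ± 0.052 and was the one of the 6 that was higher in pig 1, at 2066, than in pig 6, at 1733.

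Of 21 tested NF-kB subunits, inhibitors and regulators, 1 rose, with a median slope of 0.044. This was NFKBIZ, a nuclear regulator of NF-kB targets, with 0.29 ± 0.048 and 3447 normalised counts in pig 6 and 3079 in pig 1, against 540 to 1788. BCL3 had 0.24 ± 0.055 and MAP3K8 0.34 ± 0.11, with edgeR adjusted p of 0.0710 and 0.215.

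Of 16 other acute cytokines and chemokines, 2 rose, with a median slope of 0.049. CXCL8, the neutrophil chemokine, had 0.85 ± 0.17 and 3455 normalised counts in pig 6 against 47.9 in pig 1 and 0 to 90.1 in the other 10 pigs, so that it was above 100 in 1 pig only. CSF1, the growth factor of macrophages, had 0.36 ± 0.032, with 7162 and 3633 against 1097 to 2504. CCL8 had 0.21 ± 0.21 and 44.3 normalised counts in pig 6, against 0 in pig 1.

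Among the receptors of these ligands 4 of 13 rose and 0 fell, with a median slope of 0.21. At an unadjusted p at or under 0.05 by edgeR 11 rose, beside 6.42% of all genes. CCR1, a chemokine receptor, was 2304 in pig 6 and 423 in pig 1, against 114 to 351. IL1R1 and IL1R2, the signalling and the decoy receptor of interleukin 1, had slopes of 0.36 ± 0.055 and 0.79 ± 0.17, and TNFRSF1B, a receptor of tumour necrosis factor, 0.21 ± 0.029. IL1R2 had 405 normalised counts in pig 6, against 24.4 in pig 1 and 0 to 51.2 in the other 10 pigs. Without pigs 6 and 1, r with IL6 was 0.032 for IL1R1, -0.17 for IL1R2, 0.38 for CCR1 and 0.68 for TNFRSF1B. IL1R1 was named because it was among the 4.

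PTGS2 is the inducible step of a longer pathway. Of 14 tested genes of prostanoid synthesis and receptors, 0 rose and 1 fell, with a median slope of 0.011. The gene that fell, and is named for it, was HPGD, which degrades prostaglandins, at -0.30 ± 0.058 (adjusted p 0.0310, edgeR), with 92.0 normalised counts in pig 6 against 240 to 551 in pigs other than 1 and 6. The receptors PTGIR and PTGER4 had 0.26 ± 0.088 and 0.13 ± 0.060 and did not pass.

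The 4 enzymes that make or break down the oxysterol ligand of GPR183 included 0 that rose or fell. CH25H, which makes 25-hydroxycholesterol, had 328 normalised counts in pig 1 and 96.7 in pig 6. CYP27A1 had a log2FC of 0.64 ± 0.27, higher in low IMF (adjusted p 0.441, edgeR).

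Of 21 immediate early genes 2 rose with IL6, EGR2 (0.23 ± 0.046) and KLF6 (0.23 ± 0.034), while EGR1, with 34409 normalised counts in pig 6 and 7860 in pig 1, had 0.29 ± 0.12 and did not pass. Between the groups 9 of these 21 had an unadjusted p at or under 0.05 in the direction of high IMF and 2 in that of low IMF, beside 5.04% and 5.38% of all genes, with 0 past an adjusted p of 0.05 by edgeR. Of 11 heat shock genes 0 passed in either test. HSPA8 had a slope of 0.10 ± 0.044 and DNAJA1 of 0.16 ± 0.074.

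Among the genes with a symbol, the 10 with the highest Pearson r with IL6 over 12 pigs, a description, included THBS1, GFPT2, UGDH, EMP1, LARP6, ERRFI1, TNFAIP6, PLAUR and CASP10, with r between 0.948 and 0.977. UGDH and GFPT2 are enzymes of nucleotide sugar synthesis, and TNFAIP6 is a secreted protein that binds hyaluronan. GFPT2 had 14617 normalised counts in pig 6 and 4973 in pig 1, against 1029 to 2381 in the other 10 pigs, and TNFAIP6 3213 and 1082 against 188 to 530. Counted over all 14261 genes, with or without a symbol, CCL2 came 16th by r, 1st by rho, and 1st by r without pigs 6 and 1. Without these pigs r of the 10 ran from 0.666 to 0.879. All of these correlations are over the same 12 libraries, and pigs 6 and 1 lie at their upper end.

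Markers of other cell types moved in pig 6 as well. Red blood cell markers summed to 633 CPM in pig 6, against 41.3 to 122 in the other 11 pigs. Macrophage markers summed to 188 CPM in pig 6 and 133 in pig 1, against 80.3 to 162 in the 11 pigs other than pig 6, and T cell markers to 5.73 against 2.13 to 4.62. Neutrophil markers reached 26.8 CPM in pig 6, but also 24.5 and 19.5 in pigs 5 and 2, where IL6 was 112 and 74.8, and 10.1 in pig 1. The neutrophil marker MPO was at 0 in all pigs, and CSF3R, the receptor of the neutrophil growth factor, had 843 normalised counts in pig 6 against 59.1 in pig 1 and up to 123 elsewhere.

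The sums of the high and the low IMF group overlapped for all 10 marker lists. They ran from 6.78 to 26.8 and from 7.48 to 10.0 CPM for neutrophil markers, in the order high and low IMF, from 80.3 to 188 and from 90.2 to 162 for macrophage markers, and from 152 to 283 and from 116 to 343 for adipocyte markers. Skeletal muscle markers were lowest in pig 6. With the slope on IL6, CSF3R rose among 7 neutrophil markers and 0 rose among 9 macrophage, 8 T cell, 3 B cell, 4 red blood cell and 7 adipocyte markers. All 4 red blood cell markers rose at an unadjusted p at or under 0.05 by edgeR, beside 6.42% of all genes. Of 7 endothelial markers 0 rose, and 4 had negative slopes at an unadjusted p at or under 0.05, beside 3.5% of all genes. Fibro-adipogenic (8), satellite cell (6) and skeletal muscle (4) markers had 0 past an adjusted p of 0.05 by edgeR. The part of these markers in the values of IL6 and its companions was not tested.

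**Figure D5:**
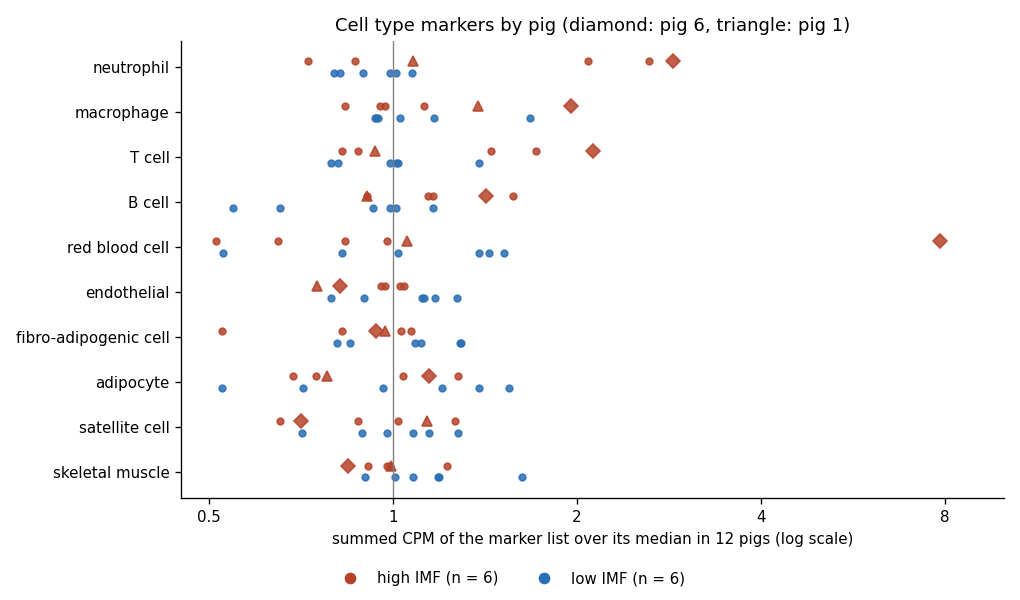
Summed CPM of 10 cell type marker lists in each pig over the median of the list in 12 pigs (log scale), with high IMF pigs in red, low IMF pigs in blue, pig 6 as a diamond and pig 1 as a triangle. Pig 6 is the highest for neutrophil, macrophage, T cell and red blood cell markers, while pig 1 is the highest for none of the 10 lists.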

How the data were processed

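RNA of Semimembranosus muscle was sequenced as stranded libraries from 6 high and 6 low IMF pigs. The authors used Trimmomatic, HISAT2 (build Sscrofa11.1), StringTie and HTSeq, and they deposited reads per Ensembl gene as whole-number counts with no normalization. Whether strand was used in counting and how multi-mapped reads were treated are not given in the sources used here. Reads shared by overlapping genes or near-identical copies are therefore uncertain.

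The members, gene lists and tests were chosen with earlier results of these data known. Symbols came from the gene name table, and structures and promoters from RefSeq on Sscrofa11.1. Genes kept by filterByExpr were normalized by TMM and tested with the quasi-likelihood test of edgeR 4.0.16 (R 4.3.3), with Benjamini-Hochberg adjustment over all genes. The group test had the group alone (10 residual degrees of freedom), and the slope test added the log2 CPM of IL6 (prior count 2). Correlations used 100000 two-sided permutations, and all 720 orders within a group of 6. Alternatives were DESeq2 1.42.0 (size factors, Wald test), limma-voom (limma 3.58.1), upper-quartile scaling, other filters, a robust fit, labelled sex or age as a term, no group term, and pigs left out. Both tests and the correlation were also run on simulated data with known changes. No simulated gene was given an outlying pig beyond its set change, so those runs do not bear on calls that depend on pig 6. Genes named are the members, up to 4 per list (the 2 of largest log2FC and the 2 of highest r with IL6), the 10 of highest r among genes with a symbol, and those said to be named for their result; 1 gene that the rule names is not reported here. Pigs are separate animals, and the spread between pigs, with a common coefficient of variation of 0.332, limited precision. For members with low counts, such as IL6 (8 counts in pig 7) and LIF (9 in pig 8), counting noise limited it as well. Tables and figures were made with pandas 2.3.3, numpy 2.4.6, scipy 1.17.1 and matplotlib 3.10.9 under Python 3.11.15.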

Additional observations from a re-analysis of the deposited data

Results flagged for a closer look

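In 5 of the 18 sets of 6 pigs (9 genes in each of 2 groups), 1 pig stood so far from the rest that its gap to the nearest pig, divided by the range of the group, exceeded Dixon's 95% critical value of 0.625. All 5 were pig 6 in the high IMF group. IL6 and GPR183 were chosen on their levels in these pigs, so their gaps are a description. Of the 14 sets of the other 7 genes, 3 had such a gap. For normally distributed values about 1 in 20, or 0.7 of 14, would, but these are unlogged counts. Sets that share pigs are not independent, and the share over all genes was not computed. The 3 are therefore a description and not an excess over chance. The gap was 0.838 of the range for IL6 (normalised count 5054 in pig 6), 0.963 for LIF (334), 0.958 for CCL2 (20295), 0.759 for GPR183 (543) and 0.797 for SOCS3 (25064). CXCL2, PTGS2, NFKBIA and TNFAIP3 gave no such gap, and in the low IMF group none of the 9 genes did.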

How the results depend on the processing

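The count of the 8 genes that rose with IL6 was 3, and leaving out each pig in turn gave 0 to 4. It was 0 without the 2 pigs farthest from the median of IL6, 1 without the 6 pigs with Y chromosome counts against their label, and 5 without the group term, where 255 of all genes rose instead of 120. For the correlation the count of 1 (CCL2) ranged from 0 to 1 when each pig was left out, being lost without pigs 1, 6 or 7, and it was 0 without the 2 farthest pigs and 0 without the 6 pigs. Between the groups the count of 0 among 7 genes became 1 of 5 with DESeq2's Wald test, which gave CCL2 and LIF no p, and stayed 0 to 0 with each pig left out, and among the genes of the lists 0 became 2 (CEBPB and FOSL2, of 162 given an adjusted p) with that test and stayed 0 to 0.

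Directions turned as follows. Without the 2 farthest pigs the slopes of CXCL2, GPR183, NFKBIA and TNFAIP3 were -0.16, -0.024, -0.11 and -0.019, and the r of CXCL2, NFKBIA and TNFAIP3 were -0.039, -0.39 and -0.026. Without pigs 6 and 1, SOCS3 had a log2FC of 1.24 and NFKBIA of 0.23. With each pig left out, the log2FC ran from -1.76 to 0.37 for SOCS3 and from -0.22 to 0.033 for NFKBIA. The cause was not tested. The slope of PTGS2 had an adjusted p of 0.0555 with labelled sex and 0.0577 with age as a term in edgeR. The labelled sex went against the Y chromosome counts in 6 of the 12 pigs, and the sex shown by those counts was not fitted. By limma-voom the log2FC was -2.06 for IL6, -1.38 for CCL2, -1.41 for PTGS2, -0.96 for LIF and -0.20 for SOCS3. Other normalizations and filters changed none of these member counts, and IL6 and LIF were not tested where at least 10 counts in every pig were required. No paired analysis was possible because the pig numbers pair no animals.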
